A study of Mus musculus with 4 samples.

Results

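Astrocyte-like cells of the newborn mouse cerebral cortex are described here in a Tsku knockout (KO) and a wild-type (WT) animal. They were 384 of the 2483 cells kept from both libraries made on the day of birth (P0), and of 7210 kept in the series, with 250 from the KO and 134 from the WT. A cell was kept if its barcode held at least 500 counts and 300 genes and at most 10% of its counts came from mitochondrial genes. It was taken as astrocyte-like if Aqp4, Gja1, Slc1a2, Sparcl1 and Aldoc together gave at least 8 counts, with none for Pdgfra, Sox10 or Cldn5 and at most 2 for Mki67, Top2a and Cenpf together. The study profiled dissociated cortex by single-cell RNA sequencing in 4 libraries, a KO and a WT one from embryos (E14.5, the age in days) and a KO and a WT one from newborns (P0). Each library came from 1 mouse, and the labels give neither the allele nor the strain. The gene Tsku makes Tsukushi, a leucine-rich proteoglycan that cells release. With 1 library per genotype and age there is no test across animals, no p-value is given, and genotype cannot be told apart from the animal, the dissection or the library.

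Astrocytes arise from radial glia, the neural stem cells of the developing cortex, in the days around birth. They take up glutamate through the transporters Slc1a2 and Slc1a3, clear potassium and water, and form a network coupled by gap junctions such as those of Gja1. They also supply cholesterol in Apoe particles and secrete proteins that act on synapses, Sparcl1 among them.

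The deposited P0 files held 1456 KO and 1073 WT barcodes with 8959784 and 6136897 counts, of which 1436 and 1047 barcodes were kept. No barcode sequence was shared between the P0 libraries. Tsku gave 0 counts in all 1436 KO cells and 42 counts in 36 of 1047 WT cells at P0. With the KO sum set to a floor of 3 counts over the library, the KO level was 20.6-fold lower, a value that leaves out the counting error of the WT. The library labelled E14.5 knockout held 74 Tsku counts in 74 of its 4107 cells, which goes against its label, against 54 counts in 46 of 620 cells of E14.5 WT. Both P0 animals had the transcripts of a male, with Xist at 0 counts in the astrocyte-like cells of each and Ddx3y at 143 CPM in KO and 141 CPM in WT cells (CPM, counts of a gene per 1000000 counts summed over the cells).

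Within the astrocyte-like cells themselves Tsku was rare. None of the 250 KO cells held a count (binomial interval to 1.46% of cells), and 4 of the 134 WT cells held 1 count each (2.99%, 0.819 to 7.47%), so the intervals overlapped. The WT level was 4.77 CPM (95% Poisson interval 1.30 to 12.2). With the KO sum set to the same floor, the KO level was 2.64-fold lower, and the interval of the log2 ratio reached up to -0.39.

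The astrocyte-like cells held 1661816 counts in the KO and 838751 in the WT. Their median depth was 5825.5 counts per KO cell and 5682 per WT cell, and 1.06% of KO counts and 1.39% of WT counts were mitochondrial. Intervals below are 95% intervals from the Poisson or binomial distribution and cover counting error only.

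The cells were chosen by their own counts of the rule genes, so the levels of those genes are given as a description. In KO and WT cells Sparcl1 stood at 3533 and 2609 CPM, Slc1a2 at 1749 and 1066 CPM, and Aldoc, a glycolytic aldolase, at 1406 and 1779 CPM. Aqp4, the water channel of astrocyte endfeet, stood at 473 CPM in KO and 331 CPM in WT cells, and Gja1 at 294 CPM in KO and 193 CPM in WT cells. The median sum of the 5 markers was 39 counts per KO cell (8 to 312) and 32 per WT cell (8 to 169). All 5 markers were present in 101 KO and 50 WT cells, while 9 KO cells and 1 WT cell qualified on a single marker. At the threshold, 6 KO and 5 WT cells had exactly 8 marker counts, and 9 KO and 4 WT cells that met the other conditions had exactly 7.

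Markers that the rule did not use were set against their levels in neurons. Of the 47 other astrocyte markers listed, 37 in the KO and 35 in the WT gave at least 50 counts over astrocyte-like cells and neurons, and all of these were at least 1.5-fold higher in the astrocyte-like cells. The median log2 ratio over neurons was 5.40 in the KO and 6.03 in the WT. These neurons were chosen with at most 2 rule-marker counts, and a gene could reach 50 counts through the astrocyte-like cells alone. The share over all measured genes is not given for this comparison, here or for the radial glial list below. The numbers are therefore a description, and a level above neurons does not tell astrocytes from radial glia. Slc1a3 reached 3523 CPM in KO astrocyte-like cells and 29.3 CPM in KO neurons, with 2925 CPM and 23.4 CPM in the same cells of the WT. Glul, which makes glutamine from glutamate, stood at 1300 CPM in KO and 1588 CPM in WT astrocyte-like cells, against 85.9 CPM in KO and 97.3 CPM in WT neurons. The levels in neurons serve as the background of free RNA, at a median depth of 4596 counts per KO neuron and 4565 per WT neuron. After every cell was thinned to 2000 counts, Slc1a3 was found in 95.2% of KO and 94.8% of WT astrocyte-like cells (97.2% and 96.3% unthinned), and in 6.54% of KO and 3.88% of WT neurons.

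Most genes of radial glia also stood above their level in neurons, again as a description. Of 26 radial glial genes, 24 were at least 1.5-fold higher than in neurons in each genotype. Fabp7, the brain fatty acid binding protein, was the most abundant gene shown, at 15910 CPM in KO and 17156 CPM in WT cells. Sox9, a glial fate factor, stood at 969 CPM in KO and 875 CPM in WT cells. Vim, an intermediate filament, stood at 868 CPM in KO and 852 CPM in WT cells. S100b, a marker of mature astrocytes, gave 4 counts in KO cells and 0 in WT cells, and Gjb6, the other astrocytic connexin, gave 8 and 0.

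**Figure D1:**
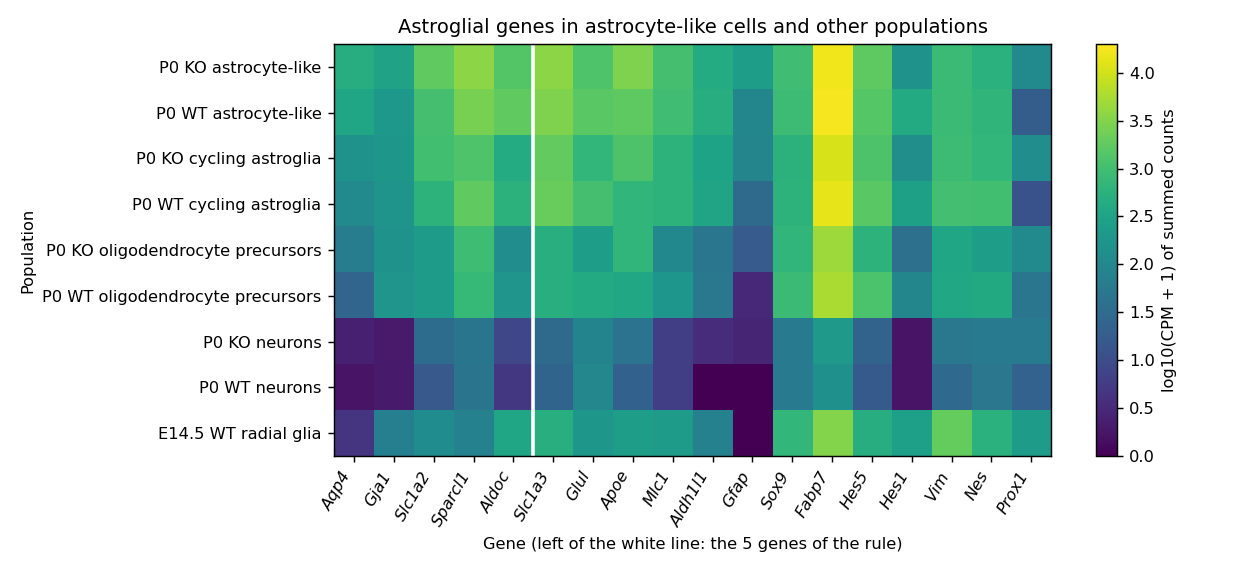
Level of 18 astroglial genes (columns) in summed cells of each population (rows), coloured by log10(CPM + 1), with KO above WT for each population. Both astrocyte-like rows are bright for the 5 rule genes and for Slc1a3, Apoe and Fabp7, where neurons are dark, and Prox1 is brighter in the KO row (108 CPM) than in the WT row (17.9 CPM).

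The sum of the 5 rule markers is part of the choice of cells and follows depth, so its spread is a description only. Marker sums of 8 to 15 were found in 50 KO and 26 WT cells, sums of 16 to 39 in 77 KO and 60 WT cells, and sums of at least 40 in 123 KO and 48 WT cells. The top range thus held 49.2% of KO and 35.8% of WT cells. From the lowest to the highest range, the median depth was 4752.5, 4782 and 7220 counts per KO cell and 4223.5, 4700 and 6949 counts per WT cell. In the same order, the summed level of astrocyte markers outside the rule was 13931, 25052 and 37008 CPM in the KO and 17095, 26965 and 35546 CPM in the WT.

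Transcripts of the pan-neuronal and projection neuron lists were lower at higher marker sums, and those of inhibitory neurons were not. Tubb3, the neuronal tubulin, stood at 1182 CPM in KO and 945 CPM in WT cells with sums of 8 to 15, at 173 and 136 CPM with sums of 16 to 39, and at 43.2 and 5.61 CPM with sums of at least 40. The inhibitory neuron list summed to 91.2, 186 and 248 CPM in the KO and 138, 237 and 166 CPM in the WT, from the lowest to the highest range. Over the whole pan-neuronal list all 12 genes were detected, with a summed level of 2103 CPM in KO and 2264 CPM in WT astrocyte-like cells, against 12061 CPM in KO and 11369 CPM in WT neurons. Scrublet, which scores barcodes for holding 2 cells, marked 3 of the 250 KO and 3 of the 134 WT astrocyte-like cells. These were 3 of the 6 barcodes it marked in the P0 KO library and all 3 of those it marked in the P0 WT library.

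The first comparison asks whether loss of Tsku went with a different share of astrocyte-like cells at birth. They made up 17.4% of KO cells (250 of 1436, 15.5 to 19.5%) and 12.8% of WT cells (134 of 1047, 10.8 to 15%), a ratio of 1.36 (1.10 to 1.69, log2 0.44). With the cells that carried more than 2 mitotic counts added, the share was 22.9% in KO and 16.4% in WT cells, a ratio of 1.39 (1.16 to 1.69). Among these astroglia, cycling cells were 24.0% in the KO and 22.1% in the WT (ratio 1.09, 0.729 to 1.65).

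The KO and WT cells differed in how many carried Prox1. Prox1 is a homeobox factor known from the granule neurons of the dentate gyrus. It was found in 68 KO astrocyte-like cells (27.2%) and in 9 WT ones (6.72%). With those cells left out, a choice made after the values were seen, the share was 12.7% in the KO (182 cells) and 11.9% in the WT (125 cells), with a log2 ratio of 0.09 (-0.25 to 0.43). Since a larger part of the KO cells carried Prox1, leaving them out had to lower the ratio, and nothing is read from its size. Other shares differed too, with oligodendrocyte precursors at 13.2% of KO and 6.97% of WT cells and neurons at 37.3% of KO and 51.8% of WT cells. Shares of a library add up to a whole, so a larger share of one population and a smaller share of another cannot be told apart.

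The second comparison is of gene levels in the astrocyte-like cells, KO over WT. It covered the 7952 genes that reached 50 counts over the 2 genotypes, and their median log2 ratio was 0.03. At least 1.5-fold higher in the KO were 695 genes (8.74%), and at least 1.5-fold lower were 481 genes (6.05%). Past 2-fold there were 188 higher and 94 lower genes. Among the 2863 genes with at least 200 counts, 96 were past 1.5-fold higher and 106 lower. Without the cells that carried Prox1, an alternative chosen after seeing the data, 554 of 7020 measured genes were past 1.5-fold higher and 502 lower. Without the cells with a count of Neurod2, Neurod6, Gad1 or Gad2, which mark neurons, 719 of 6971 were higher and 472 lower. In all other P0 cells of the same libraries, 9.17% of 12327 measured genes were at least 1.5-fold higher and 3.24% lower. Those other cells included the cycling astroglia, at 5.5% of all KO and 3.63% of all WT cells. Oligodendrocyte precursors, at 13.2% and 6.97%, were also among them. Ratios there mix levels per cell with shares of cell types, and the 2 were not separated. Of the 688 higher genes also measured in those other cells, 146 (21.2%) were past the same fold there in the same direction and 7 in the opposite one. Of 472 lower genes, 57 (12.1%) were past it in the same direction and 11 in the opposite one.

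**Figure D2:**
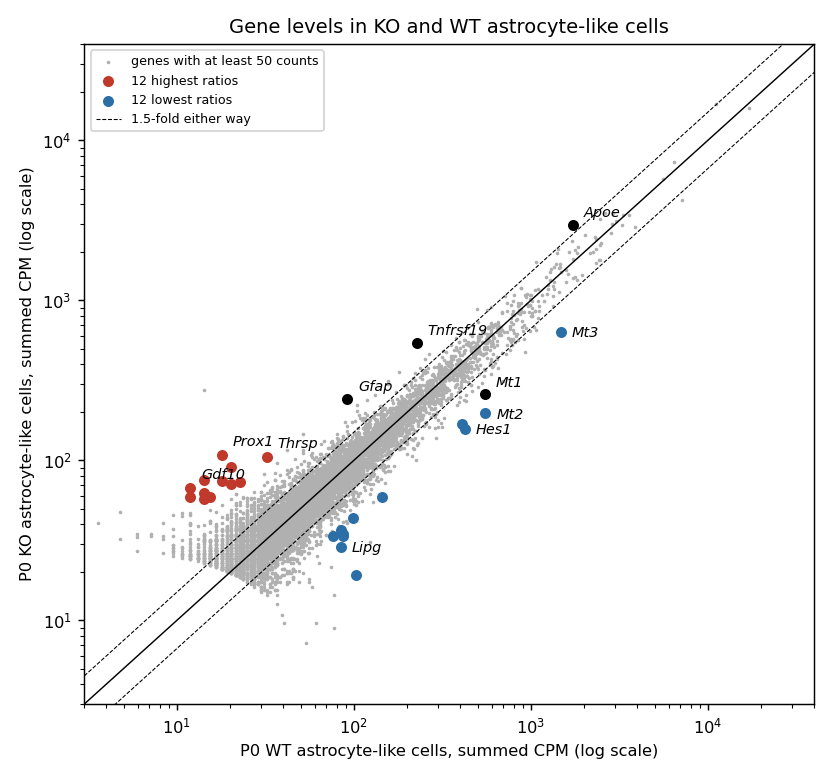
Summed CPM of each gene in KO (vertical) and WT (horizontal) astrocyte-like cells, both on log scales, with the line of equality and dashed lines at 1.5-fold. Most genes lie near equality, Prox1 (108 against 17.9 CPM) and Gfap (243 against 91.8 CPM) lie above it, and Mt3 (635 against 1483 CPM) and Hes1 (158 against 424 CPM) lie below it.

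Among markers of astrocyte maturation, genes differed in both directions. Of 47 astrocyte markers outside the rule, 38 were measured, of which 6 were at least 1.5-fold higher and 4 lower in the KO, with a median log2 ratio of 0.19. Over all measured genes, the shares to set beside this and each later KO over WT list were 8.74% higher and 6.05% lower. The 6 higher ones were Apoe, Tril, Gfap, Cldn10, Kcnj16 and Lcat, and the 4 lower ones were Mt1, Mt2, Mt3 and Acsl3. In other P0 cells the median of the list was 0.58, with 19 of 39 higher and 2 lower.

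Gfap, the intermediate filament of mature and reactive astrocytes, gave 404 counts in 106 KO cells and 77 counts in 38 WT cells, or 243 CPM and 91.8 CPM. The log2 ratio was 1.40 (1.05 to 1.78), and 11.2% of all counts came from 1 cell. After thinning, 23.2% of KO cells (18.1 to 28.9%) and 12.7% of WT cells (7.57 to 19.5%) held a count, and the value was 0.561% in KO neurons and 0 of 541 in WT neurons (interval to 0.680%). Apoe, the main lipoprotein of the brain, stood at 2977 CPM in KO and 1728 CPM in WT cells (log2 0.79, 0.70 to 0.87). Tril, an accessory protein of Toll-like receptor signalling, stood at 359 CPM in KO and 179 CPM in WT cells (log2 1.00, 0.74 to 1.27). Tnfrsf19, a receptor of the TNF receptor family chosen after its values were seen, stood at 544 CPM in KO and 227 CPM in WT cells (log2 1.26, 1.04 to 1.5). All 4 genes were also higher in the KO among other P0 cells, by log2 1.80, 1.26, 1.38 and 1.44. Of the Gfap counts in those other cells, 70 of 126 in the KO and 11 of 26 in the WT were in cycling astroglia. Whether the 4 genes differed more in one population than in the other was not tested.

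The metallothioneins, small cysteine-rich proteins that bind zinc and copper, were lower in the KO. Mt3, the brain form, gave 1056 counts in 216 of 250 KO cells and 1244 counts in 129 of 134 WT cells. Its level was 635 CPM in KO and 1483 CPM in WT cells (log2 -1.22, -1.34 to -1.10). Mt2 stood at 197 CPM in KO and 554 CPM in WT cells (log2 -1.49, -1.70 to -1.28), and Mt1 at 259 CPM in KO and 552 CPM in WT cells (log2 -1.09, -1.28 to -0.90). In other P0 cells the log2 ratios were -0.88 for Mt3, -0.67 for Mt2 and -0.35 for Mt1. After thinning, Mt3 was found in 61.6% of KO cells (55.3 to 67.7%) and 90.3% of WT cells (84.0 to 94.7%). The 3 genes are close relatives, and how reads matching more than 1 of them were counted is not stated.

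The other genes of the metal list did not share that direction. Of 9 measured genes, the 3 metallothioneins were at least 1.5-fold lower and 2 transporters of the Slc30 family higher, with a median log2 ratio of -0.06. Slc30a10 stood at 111 CPM in KO and 51.3 CPM in WT cells (log2 1.11, 0.63 to 1.63), and Slc30a1 at 75.8 CPM in KO and 50.1 CPM in WT cells (log2 0.60, 0.08 to 1.14). Fth1, the ferritin heavy chain, stood at 581 CPM in KO and 608 CPM in WT cells.

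The sequences just upstream of the metallothionein genes are shown because these genes differed together and their known regulator acts at metal response elements, whose core is TGCACNC or TGCGCNC. The 250 bases before each start are RefSeq's for build GRCm38.p6, a build other than the GRCm39 named for the counts, and all lie on the plus strand of chromosome 8. They span chr8:94178839-94179088 for Mt1, chr8:94172368-94172617 for Mt2 and chr8:94152357-94152606 for Mt3. Capitals mark letters that match either core on either strand.
Mt1: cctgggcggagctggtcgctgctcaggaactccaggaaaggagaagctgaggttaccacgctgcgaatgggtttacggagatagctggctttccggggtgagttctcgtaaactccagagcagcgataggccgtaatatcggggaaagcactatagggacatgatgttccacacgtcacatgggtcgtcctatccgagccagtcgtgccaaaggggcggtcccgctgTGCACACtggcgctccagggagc
Mt2: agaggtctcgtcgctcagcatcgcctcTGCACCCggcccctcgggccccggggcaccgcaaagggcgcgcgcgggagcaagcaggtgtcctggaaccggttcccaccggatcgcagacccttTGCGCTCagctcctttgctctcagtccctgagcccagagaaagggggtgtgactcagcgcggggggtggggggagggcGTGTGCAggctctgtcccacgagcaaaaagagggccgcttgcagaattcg
Mt3: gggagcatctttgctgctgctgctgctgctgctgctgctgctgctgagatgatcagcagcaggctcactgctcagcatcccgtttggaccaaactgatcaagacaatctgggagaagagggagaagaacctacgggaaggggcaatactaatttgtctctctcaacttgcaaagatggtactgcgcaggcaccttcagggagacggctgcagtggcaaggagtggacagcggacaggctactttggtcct
Within these 250 bases Mt1 held 1 match, Mt2 held 3 and Mt3 held 0. Bases after the annotated start were not searched, so the numbers depend on that start and are not totals for the genes. Of all 32851 RefSeq promoters of this length, 21.4% held at least 1 match and 1.26% at least 3, and a match is a description of letters only.

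Most radial glial and Notch genes lay within 1.5-fold between KO and WT cells, and Hes1 was lower in the KO. Of 26 radial glial genes measured, 0 were at least 1.5-fold higher and 3 lower (Hes1, Ddah1 and Fam107a), with a median of 0.04. Hes1, a repressor that acts downstream of Notch, gave 263 counts in 122 KO cells and 356 counts in 86 WT cells, or 158 and 424 CPM (log2 -1.42, -1.66 to -1.19). After thinning it was found in 24.0% of KO cells (18.8 to 29.8%) and 46.3% of WT cells (37.6 to 55.1%), against 0 of 535 KO neurons (interval to 0.687%) and 0.185% of WT neurons. Hes5, the other main Notch effector, stood at 1696 CPM in KO and 1455 CPM in WT cells (log2 0.22, 0.12 to 0.32). In the Notch list, 2 of 18 measured genes were at least 1.5-fold higher (Heyl and Numb) and 1 lower, with a median of 0.00. In other P0 cells Hes1 had a log2 ratio of -0.59 and Hes5 of 0.00.

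Genes of glutamate and ion transport leaned to the KO side. Of 15 measured, 4 were at least 1.5-fold higher and 0 lower, against 8.74% and 6.05% of all measured genes. The median was 0.44 in astrocyte-like cells and 0.50 in other P0 cells. Grm3, a metabotropic glutamate receptor, stood at 191 CPM in KO and 118 CPM in WT cells (log2 0.69, 0.36 to 1.03). Slc38a3, a glutamine transporter, stood at 147 CPM in KO and 93.0 CPM in WT cells (log2 0.66, 0.29 to 1.05). Slc6a9, a glycine transporter, had a log2 ratio of 0.61 (0.06 to 1.19), and Kcnj16, a potassium channel subunit, one of 0.67 whose interval reached below 0 (-0.08 to 1.47). The more abundant Glul, which makes glutamine from glutamate, was on the other side of 0 (log2 -0.29). Of 7 junction and endfoot genes, 1 was past 1.5-fold, Dmd with 107 CPM in KO and 69.2 CPM in WT cells, and Mlc1 stood at 1093 and 955 CPM in KO and WT cells.

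Extracellular matrix genes had a median log2 ratio of 0.35, against 0.43 in other P0 cells. Of 24 measured, 4 were at least 1.5-fold higher (Vcan, Cd44, Gpc6 and Lama4) and 1 lower (Chst2), and 21 lay above 0. Of all measured genes, 8.74% were higher and 6.05% lower by that fold. Vcan, the proteoglycan versican, stood at 464 CPM in KO and 265 CPM in WT cells (log2 0.81, 0.59 to 1.03). Bcan stood at 1067 CPM in KO and 717 CPM in WT cells (log2 0.57) and Ncan at 2086 CPM in KO and 1415 CPM in WT cells (log2 0.56), each just under 1.5-fold. Chst2, a sulfotransferase, stood at 305 CPM in KO and 528 CPM in WT cells (log2 -0.79, -0.98 to -0.60).

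Lipid and energy genes showed few differences past 1.5-fold. In the lipid transport list, 3 of 17 measured genes were higher (Apoe, Abcg1 and Lcat) and 1 lower (Acsl3). For cholesterol synthesis the counts were 0 higher and 1 lower of 21 (Acat2, 119 CPM in KO and 191 CPM in WT cells), with a median of -0.08. For glycolysis and glycogen they were 0 and 0 of 18, with a median of 0.13. Subunits of oxidative phosphorylation had a median of -0.19, with 0 of 50 higher and 2 lower. Ribosomal protein genes had the lowest median of the lists described, -0.39, with 0 of 49 higher and 12 lower, and in other P0 cells it was -0.21 with 8 of 49 lower.

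Signalling genes differed one by one, where 8.74% of all measured genes were at least 1.5-fold higher and 6.05% lower. In the FGF and ERK list, 3 of 17 were at least 1.5-fold higher and 1 lower, with a median of -0.20. Il17rd, an inhibitor of FGF signalling, stood at 46.9 CPM in KO and 11.9 CPM in WT cells (log2 1.98, 1.02 to 3.09), and Egfr at 174 CPM in KO and 97.8 CPM in WT cells (log2 0.83, 0.47 to 1.20). Spry2, another feedback inhibitor, stood at 187 CPM in KO and 287 CPM in WT cells (log2 -0.62, -0.87 to -0.37). In the Wnt and hedgehog list, 5 of 26 were higher and 0 lower, and the 5 were Fzd1, Fzd9, Fzd10, Nkd1 and Lef1. Fzd10, a Wnt receptor, gave 79 counts in 19 KO cells and 4 counts in 3 WT cells (log2 3.32, 1.90 to 5.23), with 22.9% of its counts in 1 cell. The BMP list had 0 of 14 genes past 1.5-fold either way, and its target Id3 stood at 1077 CPM in KO and 929 CPM in WT cells.

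Immediate early genes, which dissociation can induce, had a median of 0.23. Of 19 measured, 4 were at least 1.5-fold higher and 2 lower, against 8.74% and 6.05% of all measured genes. Fos stood at 3145 CPM in KO and 3045 CPM in WT cells (log2 0.05) and Jun at 1466 CPM in KO and 1630 CPM in WT cells (log2 -0.15). Ccn1 stood at 650 CPM in KO and 1071 CPM in WT cells (log2 -0.72, -0.85 to -0.59), and Ccn2 at 9.03 CPM in KO and 77.5 CPM in WT cells (log2 -3.10, -4.02 to -2.28). Both encode matricellular proteins. In the list of gliogenic transcription factors, 1 of 22 was higher and 1 lower. The higher one, Fezf2, is also in the projection neuron list. The lower one, Klf9, is a factor induced by thyroid hormone and glucocorticoids, and stood at 256 CPM in KO and 572 CPM in WT cells (log2 -1.16, -1.35 to -0.97). Nfia stood at 995 CPM in KO and 1021 CPM in WT cells, and Nfib at 1602 CPM in KO and 1439 CPM in WT cells, both drivers of gliogenesis.

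Of 94 genes that the text could name and that were past 1.5-fold, 29 fell short of it under at least 1 alternative. In the paragraphs above these were Cldn10, Kcnj16, Ddah1, Numb, Slc38a3, Slc6a9, Dmd, Slc30a1, Egfr, Spry2, Lef1 and Ccn1. Those that moved most, among settings that left a gene at least 50 counts, were Numb, Kcnj16, Slc6a9 and Egfr. Numb was at 0.27 with a marker sum of at least 5, and Egfr at 0.36 after thinning. Kcnj16 and Slc6a9 were at 0.32 and 0.33 without cells that held neuronal counts. Without the Prox1 cells Lef1 was at -0.20, on fewer counts than that filter asks.

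**Figure D3:**
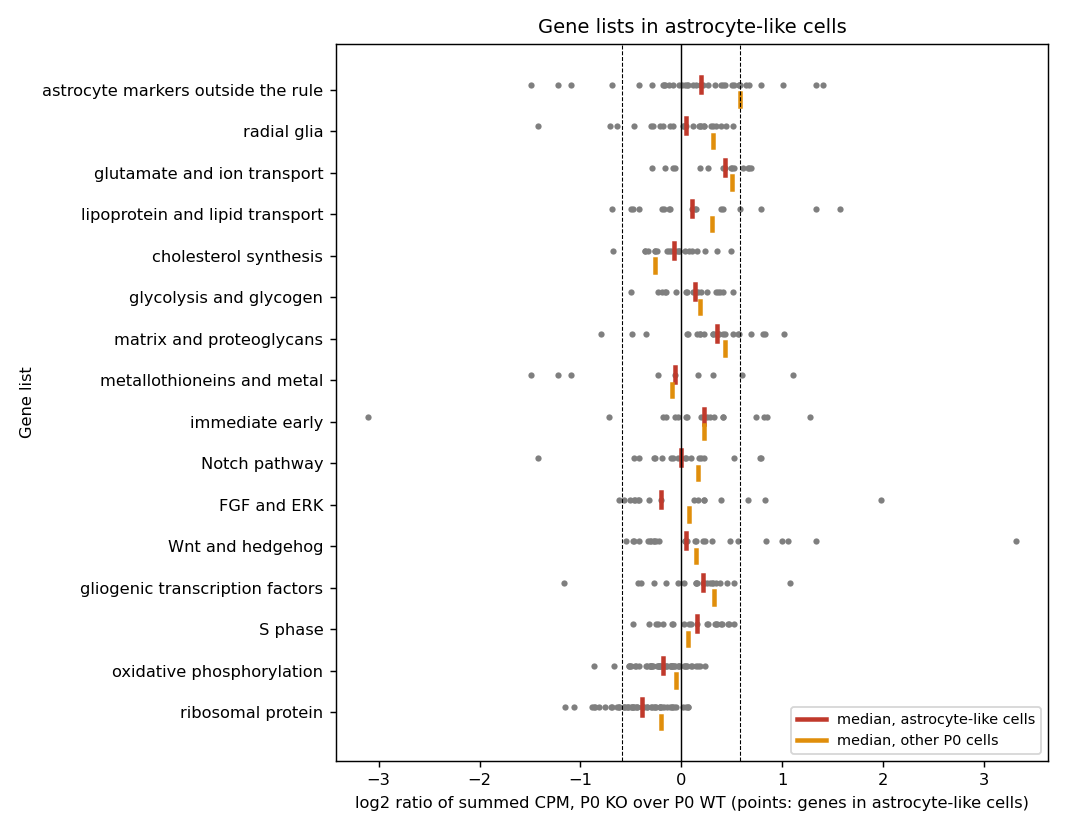
Log2 ratio KO over WT of each measured gene in 16 lists, with the median of the list in astrocyte-like cells (upper bar) and in other P0 cells (lower bar). Medians lie between -0.39 for ribosomal protein genes and 0.44 for glutamate and ion transport, and single genes such as Fzd10 (3.32) and Ccn2 (-3.10) lie far from theirs.

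The genes with the largest ratios were named by a rule on counts and cells. After Prox1, the highest were Gdf10, a ligand of the TGF-beta family (66.8 CPM in KO, 11.9 CPM in WT, log2 2.49), and Rgs5, known from pericytes (75.8 CPM in KO, 14.3 CPM in WT, log2 2.41). Wls, which carries Wnt ligands to the cell surface, stood at 59.0 CPM in KO and 11.9 CPM in WT cells (log2 2.31). Nid1, a basement membrane protein, followed with 90.3 CPM in KO and 20.3 CPM in WT cells (log2 2.15).

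The other 7 of the 12 highest had log2 ratios of 1.68 to 2.13. They were Chst1, a sulfotransferase, Pnp, a purine phosphorylase, Grin3a, an NMDA receptor subunit, Cav2, a caveolin, Cald1, an actin-binding protein, Thrsp, a regulator of lipid synthesis, and Angpt1, a ligand of the Tie2 receptor. Pnp was the most widely detected of these, in 87 KO cells (34.8%) and 13 WT cells (9.70%), with 74.6 CPM in KO and 17.9 CPM in WT cells. In other P0 cells Rgs5 (log2 -0.14) and Chst1 (log2 0.10) were near equality, while Gdf10 (2.72), Prox1 (1.85) and Thrsp (1.80) were also well above 0.

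Marker transcripts of several other cell types had higher summed levels in the KO astrocyte-like cells, and those of 3 lists had lower ones. The numbers of genes detected compare 1661816 KO with 838751 WT counts. Endothelial and mural markers summed to 171 CPM in KO and 72.7 CPM in WT cells, with 12 of 12 and 4 of 12 detected and with Flt1, Kdr, Cdh5 and Acta2 at 0 counts in the WT. Rgs5 is itself in this list and made up 75.8 CPM of the KO sum and 14.3 CPM of the WT sum. Microglial markers summed to 113 CPM in KO and 25.0 CPM in WT cells, with 12 of 12 and 2 of 12 detected and C1qa and Csf1r at 0 in the WT. Markers of meningeal fibroblasts summed to 111 CPM in KO and 48.9 CPM in WT cells, with 10 of 10 and 3 of 10 detected and Col1a1 and Dcn at 0 in the WT. The microglial difference was not particular to these cells. Microglial markers summed to 69.2 CPM in KO and 17.8 CPM in WT neurons, and to 289 and 20 CPM in oligodendrocyte precursors. In neurons, endothelial and mural markers summed to 19.2 CPM in KO and 18.5 CPM in WT, and meningeal ones to 2.79 and 2.13 CPM. Markers of ependymal and choroid cells summed to 103 CPM in KO and 185 CPM in WT cells, with 6 and 7 of 11 detected, those of projection neurons to 605 CPM in KO and 664 CPM in WT cells, and the pan-neuronal list to 2103 CPM in KO and 2264 CPM in WT cells. Summed levels of the oligodendrocyte lineage were 534 CPM in KO and 448 CPM in WT cells, of inhibitory neurons 203 and 190 CPM, of intermediate progenitors 945 and 739 CPM, and of red blood cells 212 and 145 CPM in KO and WT cells. The part of these transcripts in the higher ratios of Rgs5, Nid1, Cald1 and Angpt1 was not tested.

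At the low end, among genes with at least 100 counts that met the naming rule, the most negative ratio was that of the unnamed gene ENSMUSG00000121500, at 19.3 CPM in KO and 103 CPM in WT cells (log2 -2.41, -3.05 to -1.81), with -2.06 in other P0 cells. Lipg, the endothelial lipase, stood at 28.9 CPM in KO and 84.6 CPM in WT cells (log2 -1.55, -2.11 to -1.0). Tns3, a focal adhesion protein, was found in 144 of 250 KO cells and 104 of 134 WT cells, at 170 CPM and 410 CPM (log2 -1.27, -1.51 to -1.04), and was near equality in other P0 cells (log2 -0.06).

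The remaining low genes beside Mt2, Mt3 and Hes1 were Sema3c, a guidance cue, Pmp22, a membrane protein of myelin, Gm8624, Hbegf, a ligand of the EGF receptor, Per1, a clock gene, and Trib1, a pseudokinase. Their log2 ratios were -1.37, -1.32, -1.30, -1.21, -1.18 and -1.17. Sema3c had 18.6% of its counts in 1 cell, and its ratio was -0.40, short of 1.5-fold, with cells of a marker sum of at least 5. In other P0 cells Sema3c, Pmp22, Hbegf and Trib1 lay between -0.11 and 0.10, and Gm8624 (-0.91) and Per1 (-0.84) were lower there too. The difference between the 2 populations of cells was not tested for any of these genes.

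**Figure D4:**
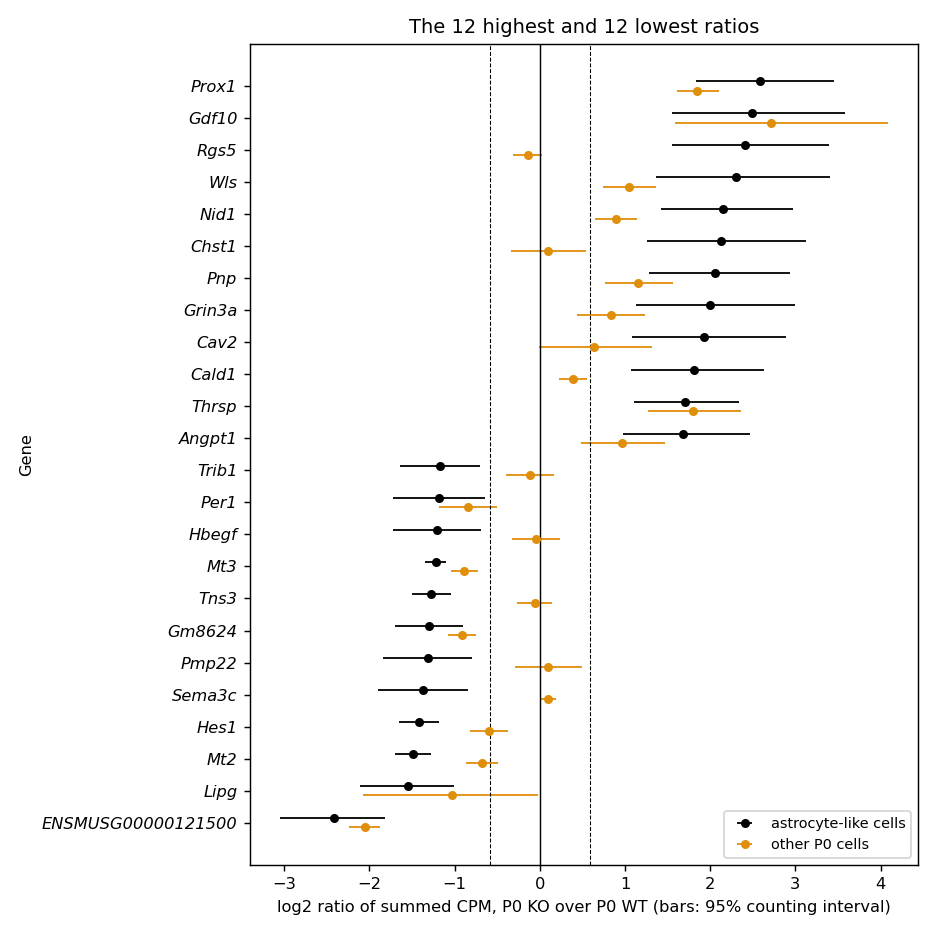
Log2 ratio KO over WT, with 95% counting intervals, of the 12 highest and 12 lowest genes in astrocyte-like cells and in all other P0 cells. Prox1, Gdf10 and Thrsp lie far above 0 in both, while Rgs5 (2.41) and Tns3 (-1.27) lie far from 0 in the astrocyte-like cells and near 0 in the others.

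Prox1 itself gave 179 counts in KO and 15 counts in WT astrocyte-like cells, or 108 CPM (92.5 to 125) and 17.9 CPM (10.0 to 29.5), a log2 ratio of 2.59 (1.83 to 3.46). After thinning it was found in 18.0% of KO cells (13.4 to 23.3%) and 3.73% of WT cells (1.22 to 8.49%). In neurons, some kinds of which make Prox1, the thinned share was 6.17% in the KO and 2.59% in the WT. Neurons are therefore no measure of free Prox1 RNA, and its part in the shares was not tested. Prox1 was as high in KO cycling astroglia (129 CPM, against 10.9 CPM in WT) and KO oligodendrocyte precursors (113 CPM, against 48.1 CPM in WT).

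KO astrocyte-like cells with a Prox1 count also carried more of certain other transcripts than those without one, in genes looked up after values had been seen. Draxin, a secreted axon guidance protein, stood at 283 CPM with Prox1 and 43.1 CPM without, and Zic1, a zinc-finger factor, at 161 CPM with and 35.3 CPM without. Gdf10 stood at 147 CPM with and 31.9 CPM without, and Thrsp at 201 CPM with and 62.9 CPM without. Neurod1 and Eomes, factors of neuronal precursors, stood at 227 and 229 CPM with Prox1 and at 9.48 and 31.9 CPM without, but each was found in only 8 of the 68 cells. The cells with Prox1 were also deeper, with a median of 6867 counts against 5263.5.

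Of other genes looked up, some were at like levels in both sets of KO cells and others were lower with Prox1. Gfap stood at 239 CPM with Prox1 and 245 CPM without, Tnfrsf19 at 532 and 549 CPM, Tril at 377 and 351 CPM, and Hes1 at 151 and 161 CPM. Fabp7 was lower with Prox1, at 10663 CPM against 18180 CPM without, as were Aqp4, at 251 CPM against 569 CPM, Mt3, at 438 CPM against 721 CPM, and Slc1a3, at 2945 CPM against 3773 CPM. With the Prox1 cells left out of both genotypes, the log2 ratio of Gfap was 1.58, that of Tnfrsf19 1.28, that of Hes1 -1.44 and that of Mt3 -1.06. In the same setting Gdf10 was at 1.49, Thrsp at 0.89, Zic1 at 0.29 (1.19 with all cells) and Draxin at 0.14 (1.47 with all cells).

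**Figure D5:**
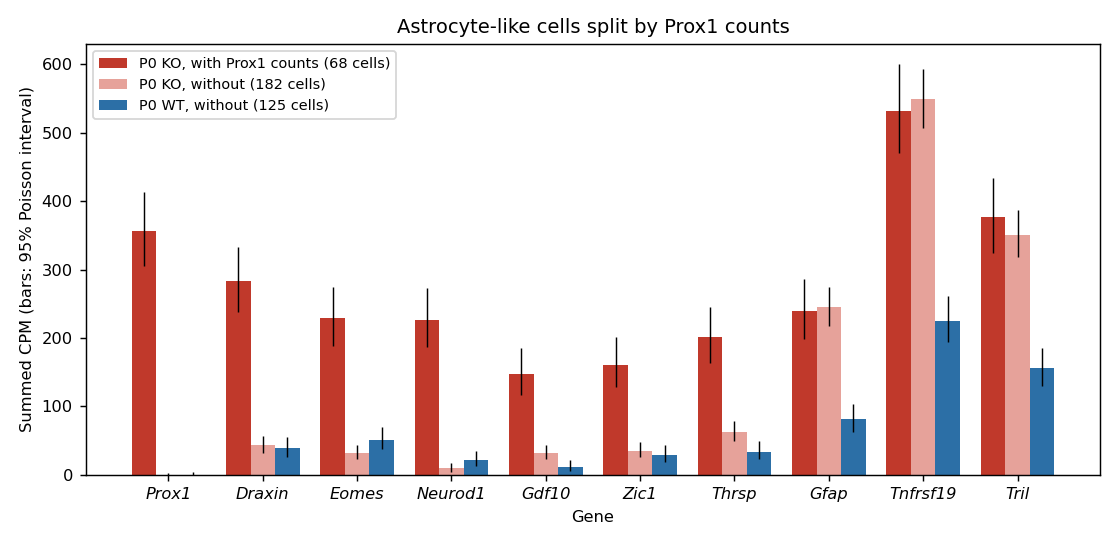
Summed CPM of 10 genes with 95% Poisson intervals in KO astrocyte-like cells with and without a Prox1 count and in WT cells without one. Draxin, Gdf10, Zic1 and Thrsp are highest in the KO cells with Prox1, while Gfap, Tnfrsf19 and Tril are alike in both KO sets and lower in the WT (81.9, 225 and 156 CPM).

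Other genes of regional identity were less uniform. Of 20 measured regional and layer genes, 4 were at least 1.5-fold higher (Nr2f1, Zic1, Emx1 and Eogt) and 2 lower (Crym and Meis1), with a median of 0.02. Emx1, at 0.74 with an interval that reached below 0, had a ratio of 0.33 when the marker sum had to be at least 0.2% of the counts of the cell, and Meis1, at -0.69, one of -0.38 as a mean over cells, both short of 1.5-fold. Without the Prox1 cells Emx1 was at 0.04, under the filter of 50 counts. Nr2f1, a factor graded across the cortex, stood at 905 CPM in KO and 595 CPM in WT cells (log2 0.61, 0.46 to 0.75). With a marker sum of at least 12 its ratio was 0.53, short of 1.5-fold. Lhx2, a cortical selector factor, stood at 384 CPM in KO and 328 CPM in WT cells (log2 0.23). Meis2 stood at 620 CPM in KO and 832 CPM in WT cells (log2 -0.43).

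The last comparison sets the P0 WT astrocyte-like cells against 34 radial glia outside mitosis from E14.5 WT cortex (282031 counts), to describe the cells against an earlier stage of the lineage. Age cannot be told apart from the library or from the different rules that chose the cells. The 34 cells held 1027 counts of ependymal and choroid markers, or 3641 CPM, against 185 CPM in P0 WT astrocyte-like cells and 188 CPM in the radial glia labelled E14.5 knockout. Ttr, the transthyretin of the choroid plexus, made up 969 of the 1027 counts, in 14 cells, and the part of such transcripts in the ratios was not tested. Of 4960 measured genes, 1126 (22.7%) were at least 1.5-fold higher at P0 and 935 (18.9%) lower, with a median of -0.02. Fewer cells met the rule for astrocyte-like cells at E14.5, where 26 of 620 WT cells (4.19%) and 31 of 4107 cells (0.755%) in the library labelled E14.5 knockout did so. Aqp4 gave 0 counts in both of these sets, so they qualified on the other 4 markers.

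Most of the astrocyte markers that could be measured were higher at P0, which is a description only. Of 35 measured astrocyte markers outside the rule, 31 were at least 1.5-fold higher and 0 lower, with a median of 2.64. The P0 cells were chosen for astrocyte marker counts, and a gene could pass the count filter through them alone. These numbers therefore cannot test whether the astrocyte programme rose with age, and the same limit applies to the other lists below. Slc1a3, itself one of the genes that chose the E14.5 radial glia, stood at 507 CPM in them. In P0 astrocyte-like cells Slc1a3 stood at 2925 CPM (log2 2.53, 2.28 to 2.78). Apoe stood at 1728 CPM at P0 and 252 CPM at E14.5 (log2 2.78, 2.43 to 3.14). Slc4a4, a bicarbonate transporter, stood at 877 CPM at P0 and 39 CPM at E14.5. All 13 measured genes of glutamate and ion transport were higher, with a median of 2.86, as were 12 of 13 lipid transport genes and 13 of 18 cholesterol synthesis genes.

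The highest ratios among named genes were those of Olig1, a glial lineage factor (194 CPM at P0, 3.55 CPM at E14.5), and Baalc (182 and 3.55 CPM), each with 1 count at E14.5. Trim9 stood at 731 CPM at P0 and 17.7 CPM at E14.5 (log2 5.37, 4.13 to 6.99), and Hepacam, a glial adhesion protein, at 290 and 7.09 CPM (log2 5.35, 3.48 to 8.41). Pla2g7, a lipase, had 0 counts at E14.5 and was 33.1-fold higher at P0 with a floor of 3 counts over the group. The interval of its log2 ratio began at 4.74. Atp1b2, S100a16 and Actr3b completed the 8 highest, with log2 ratios of 5.40, 5.11 and 4.96. Against radial glia of the library labelled E14.5 knockout, the 8 ratios ran from 2.15 for Atp1b2 to 7.27 for Hepacam. Olig1 was at 2.99 there and Baalc at 5.02, so the order depends on the E14.5 library.

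Genes of intermediate progenitors were lower at P0, with 0 of 8 measured at least 1.5-fold higher and 6 lower. Neurog2, a proneural factor, stood at 44.1 CPM at P0 and 344 CPM at E14.5 (log2 -2.96, -3.55 to -2.40), and Eomes, of intermediate progenitors, at 58.4 and 734 CPM (log2 -3.65). Zic1 stood at 32.2 CPM at P0 and 358 CPM at E14.5 (log2 -3.48) and Draxin at 41.7 and 323 CPM (log2 -2.95). Tenm4, Apcdd1, Hsph1, Igfbpl1 and Chd7 made up the rest of the 8 lowest, with log2 ratios of -2.77 to -1.98. Prox1 stood at 17.9 CPM at P0 and 234 CPM at E14.5 (log2 -3.71, -4.63 to -2.89). In radial glia of the library labelled E14.5 knockout it stood at 115 CPM (87.6 to 147), against 108 CPM in KO astrocyte-like cells at P0.

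Radial glial genes themselves did not share 1 direction. Of 25 measured, 12 were at least 1.5-fold higher at P0 and 1 lower, with a median of 0.47. Fabp7 stood at 17156 CPM at P0 and 3191 CPM at E14.5 (log2 2.43), Vim at 852 and 1908 CPM (log2 -1.16), and Nes at 641 and 546 CPM (log2 0.23). For 4 genes described above, chosen after their values were seen, the levels in WT cells at both ages were as follows. Mt1 stood at 552 CPM at P0 and 28.4 CPM at E14.5 (log2 4.28), Mt3 at 1483 and 301 CPM (log2 2.30), Hes1 at 424 and 262 CPM (log2 0.69), and Gfap at 91.8 CPM at P0 with 0 counts at E14.5. Ribosomal protein genes had a median of -0.56, with 19 of 49 lower.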

How the data were processed

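Single cells of mouse cerebral cortex were processed with the Asteria kit, with 15000 cells per sample as input, per the labels' protocols. The authors deposited raw counts per gene and cell barcode, as whole numbers without scaling, for 57126 features per library. In the submitters' processing notes FastQC 0.12.1, R 4.3.2, Seurat 5 and, as build, GRCm39 are named with no role. Not given in the sources used here are the aligner, the annotation, the choice of barcodes and whether counts are of reads or of molecules. They are taken as independent.

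The astrocyte-like cells and all gene lists were chosen with earlier results of these data known. Sums over cells were expressed per 1000000 counts (CPM) with Python 3.11.15, numpy 2.4.6, scipy 1.17.1 and pandas 2.3.3, and plotted with matplotlib 3.10.9. Ratios carry conditional binomial intervals, shares Clopper-Pearson intervals and levels Poisson intervals at 95%. A sum of 0 is set to a floor of 3 counts. The count code was tested on simulated data. Neurons were cells with at least 3 counts of Neurod2, Neurod6, Gad1 and Gad2, at most 2 marker counts and none of Pdgfra, Sox10 or Cldn5. Oligodendrocyte precursors had at least 2 counts of Pdgfra and Sox10. E14.5 radial glia had at least 5 counts of Slc1a3, Hes5, Pax6 and Sox2, at most 1 of the neuronal genes, at most 2 mitotic counts and none of Pdgfra, Sox10 or Cldn5. For thinned shares, cells below 2000 counts were left out, 1 WT neuron in all.

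Named genes are the 12 highest and 12 lowest ratios among genes with at least 100 counts of which no cell held over 20%, without rule, mitochondrial, ribosomal protein, haemoglobin and sex-linked genes, the 8 highest and lowest with age, Tsku, and from each list described its 5 most abundant genes and those past 1.5-fold, and not all of these are printed. A gene that this rule names is not reported here. Scrublet, run from scanpy 1.11.5 with 5% doublets expected, marked 6 KO and 3 WT barcodes of P0, under 1% of each library, of which 3 in each were astrocyte-like. It did not separate doublets in practice, and none were removed. edgeR 4.0.16 in R 4.3.3 gave TMM factors for an alternative scaling. Alternatives covered the marker threshold, depth, doublet scores, count filters, scaling and the weight of each cell.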

Additional observations from a re-analysis of the deposited data

Results flagged for a closer look

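Crym, Heyl and Ptgds stood out because their ratios pointed one way in the astrocyte-like cells and the other way in all other P0 cells, each past 1.5-fold. The difference between the 2 populations was not tested, since each genotype has 1 library. Crym, a thyroid hormone binding protein, stood at 30.7 CPM in KO and 123 CPM in WT astrocyte-like cells (log2 -2.0, -2.51 to -1.50), with a log2 ratio of 3.02 in other P0 cells. It was found in 4.8% of KO and 5.97% of WT astrocyte-like cells, and 1 cell held 23.4% of its counts. Heyl, a Notch target, stood at 40.9 CPM in KO and 23.8 CPM in WT astrocyte-like cells (log2 0.78, 0.04 to 1.58), with -0.71 in other P0 cells, and 1 cell held 17.0% of its counts. Ptgds, which encodes a prostaglandin synthase and was looked up after its values were seen, stood at 276 CPM in KO and 14.3 CPM in WT astrocyte-like cells (log2 4.27, 3.45 to 5.23), with -3.73 in other P0 cells, and 1 cell held 90.4% of its counts.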

How the results depend on the processing

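No paired analysis was possible because each group has 1 library, and for the same reason no library could be left out in turn. The log2 ratio of the astrocyte-like share lay between 0.39 and 0.52 under the marker thresholds, filters and thinning tried before the cells with Prox1 were examined, and was 0.0862 without those cells, which a gene more frequent in the KO had to lower. Thinning to 2000 counts gave 336 higher (8.49%) and 322 lower genes (8.14%) of 3956 measured, so the excess of higher genes was smaller. With no count filter there were 3417 higher and 5473 lower genes, where the floor sets the ratio of genes at 0, and with at least 200 counts there were 96 and 106, as fewer genes were measured. The median of the metal list was -0.35 after thinning, 0.17 with no filter and -0.66 with at least 200 counts, and these were 3 of 275 recomputed list medians that moved by more than the median counting error of their genes. Tubb4b, at -1.06, had 0.0208 after thinning. Of its counts 22.0% came from 1 cell, whose part in the change was not tested. Ier5, at 0.74, had -0.55 without Prox1 cells. With age, no filter gave 3056 higher and 6515 lower genes, at least 200 counts 259 and 199, and radial glia of the library labelled E14.5 knockout 1428 lower. TMM scaling moved KO over WT ratios by 0.00 and age ratios by 0.10. Where the cause is not named, it was not tested. Genes at 10 to 20 CPM rest on under 20 counts in the WT, which sets the width of their intervals.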

Other observations

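The genes near Tsku on chromosome 7 were described with their order taken from the GRCm38 annotation and looked up after values had been seen. Thrsp, 14 protein-coding genes away, gave 174 counts in KO and 27 counts in WT astrocyte-like cells. Aqp11, 8 genes away, gave 21 counts in KO and 2 in WT cells, Myo7a, 5 genes away, 21 and 0, and Capn5, 4 genes away, 14 and 1, all under the filter of 50 counts and picked for their values. Of the 15 protein-coding genes on each side, 14 were measured, of which Thrsp was at least 1.5-fold higher and 0 were lower, against 8.74% higher and 6.05% lower of all measured genes. Acer3, the nearest on one side, gave 18 counts in KO and 8 in WT cells. Ntsr2, a marker of mature astrocytes, gave 34 counts in KO and 1 in WT cells, under the filter. Npc1, a lysosomal cholesterol transporter, stood at 146 CPM in KO and 51.3 CPM in WT cells (log2 1.51, 1.03 to 2.01), with 1.28 in other P0 cells.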
